A study of Mus musculus with 2 samples.

Results

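Cytosolic ribosomal proteins are the proteins that, with ribosomal RNA, build the small and large subunits of the ribosome. The small subunit (Rps genes) reads the mRNA, and the large subunit (Rpl genes, with the stalk proteins Rplp0, Rplp1 and Rplp2) joins the amino acids. Their mRNAs are abundant in most cells, are made in near-balanced amounts and carry a pyrimidine tract at their 5′ end through which the mTOR pathway, a branch of insulin signalling, controls their translation. The rule for choosing the genes uses the symbol and no measured value, but was set with earlier results of these data known. It takes symbols of Rpl or Rps plus a number and an optional suffix, together with Rplp0, Rplp1, Rplp2 and Rpsa. This gave 66 genes, 44 of the large and 22 of the small subunit, out of 22296 gene symbols that probe sets of the arrays name alone.

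The arrays held AgRP neurons, the feeding-promoting neurons of the hypothalamus named after agouti-related peptide, sorted by FACS from FoxO1 KO mice and from FoxO1 heterozygous KO mice, which served as the control. FoxO1, a forkhead transcription factor, leaves the nucleus when insulin signals. Both genotypes thus carry a FoxO1 knockout allele, and both are on a mixed background, from littermates matched for age and sex. The sources used here do not give the ages, the Cre driver or reporter, or how many animals each sort combined. Each genotype has 1 array without a replicate, so the series allows no test and no p-value, and fewer cells of a type cannot be told apart from less RNA per cell. Every difference is a log2 RMA value of KO less that of heterozygous KO neurons, and the SD beside a difference is over the probe sets of a gene, not over mice.

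Agrp and Npy, defining genes of the labelled cell type, were bright on both arrays. The gene level of Agrp was 12.4 in KO neurons and 12.0 in heterozygous KO neurons, and that of Npy was 12.2 in KO neurons and 12.3 in heterozygous KO neurons. As medians over probe set differences, Agrp differed by 0.27 (6 of 7 higher) and Npy by 0.14 (4 of 6 higher). Other AgRP neuron genes were dimmer, down to Corin at 7.36 in KO neurons and 7.68 in heterozygous KO neurons. Foxo1 stood at 7.46 in KO neurons and 7.98 in heterozygous KO neurons. Oligodendrocyte markers differed between the sorts. All 11 evaluated genes of mature oligodendrocytes were lower on the KO array, and their summed linear signal was 1836 there against 4769 in heterozygous KO neurons. All 10 oligodendrocyte precursor genes were lower too, with summed signals of 1376 in KO neurons and 3112 in heterozygous KO neurons. Median differences of other lists were 0.14 over 12 AgRP neuron genes (8 above 0), -0.16 over 8 astrocyte genes (3 above 0), -0.11 over 7 microglia genes (2 above 0), -0.33 over 7 endothelial and pericyte genes (0 above 0) and 0.69 over 2 erythroid genes. Over all 16639 evaluated genes, 34.8% were above 0 and 65.2% below. The shares above 0 of the astrocyte genes (37.5%) and the microglia genes (28.6%) were near that of all genes. The part of these marker differences in the results on ribosomal protein genes was not tested.

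Promoters bear on a gene family that is known for shared start-site letters, and those below are shown because they belong to the genes that differed most or least in the results that follow. RefSeq (GRCm38.p6) gives promoters for 52 of the 66 genes. Printed are the first-listed promoters of 5 genes higher in KO neurons by at least 2-fold (Rps27, Rpl39, Rps25, Rps24 and Rpsa), of Rpl27a, the evaluated gene with the lowest difference, and of Rplp0, which hardly differed. Each runs from 30 bases before to 40 bases after the annotated start, and capitals mark the longest run of at least 7 pyrimidines (C or T) that reaches to within 20 bases of that start. The windows are chr3:90213609-90213678 (minus strand) for Rps27, chrX:37085183-37085252 (minus) for Rpl39, chr9:44407684-44407753 (plus) for Rps25, chr14:24490648-24490717 (plus) for Rps24, chr9:120127736-120127805 (plus) for Rpsa, chr7:109519165-109519234 (plus) for Rpl27a and chr5:115559437-115559506 (plus) for Rplp0.
Rps27: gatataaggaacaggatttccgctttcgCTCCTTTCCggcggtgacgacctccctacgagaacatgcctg
Rpl39: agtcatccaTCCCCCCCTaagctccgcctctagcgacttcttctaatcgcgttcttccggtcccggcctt
Rps25: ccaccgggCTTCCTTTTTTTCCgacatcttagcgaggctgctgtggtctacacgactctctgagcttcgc
Rps24: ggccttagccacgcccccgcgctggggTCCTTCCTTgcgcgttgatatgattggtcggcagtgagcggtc
Rpsa: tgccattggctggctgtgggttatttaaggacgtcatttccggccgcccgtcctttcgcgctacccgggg
Rpl27a: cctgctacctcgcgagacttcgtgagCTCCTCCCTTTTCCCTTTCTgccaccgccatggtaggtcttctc
Rplp0: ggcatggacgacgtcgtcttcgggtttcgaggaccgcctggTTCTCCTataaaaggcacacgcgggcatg

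The run of Rpl27a was the longest of those shown, at 20 bases, beginning 4 bases before the annotated start. Those of Rps27 and Rps24 had 9 bases each and crossed the start, while Rpsa had none within 20 bases of the start. Such a run was found in 34 of 63 promoters of ribosomal protein genes, or 54.0%, and in 30.2% of all 32851 promoters in the table. The letters CCGGAAG, the core bound by ETS factors such as GABP, were searched on both strands of the whole promoters (250 bases before to 50 after the start). They were in 22 of the 63 promoters, or 34.9%, and in 8.86% of all promoters, and of the genes shown Rpl39, Rps25, Rpsa and Rpl27a had them. The forkhead letters GTAAACA, searched the same way, were in 1 of 63 promoters, or 1.59%, and in 3.65% of all. Of the genes shown, all but Rpsa had a pyrimidine run that reached to within 20 bases of the start. The letters tcctttc of Rpsa lie just beyond that limit. A match describes letters only, and whether it goes with a gene's difference was not tested.

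Ribosomal protein genes were mostly higher on the KO array. A gene's difference was the median over its probe sets, using those whose mean over both arrays reached a floor of 5.86, the median over all probe sets. With at least 3 such probe sets required, 50 of the 66 genes were evaluated, 30 of the large and 20 of the small subunit. Their median difference was 0.42, or 1.33-fold, against -0.11 over all 16639 evaluated genes, and 45 of 50 lay above 0 and 5 below. Over all evaluated genes the share above 0 was 34.8% and that below 65.2%. The floor acts on the mean of both arrays, and with no floor 47 of 56 genes lay above 0 (median 0.43), against 35.9% of all genes.

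Few genes reached a large difference. A gene was called where it differed at least 2-fold (1 on the log2 scale) with at least 75% of its probe sets going that way. On the KO array 6 ribosomal protein genes were at least 2-fold higher, where 1.13% of all evaluated genes were, and 0 were at least 2-fold lower, where 1.12% of all were. With a 1.5-fold rule 18 were higher, against 3.28% of all genes, and 2 were lower, against 4.9% of all. A difference of at least 0.5 was found in 22 of 50, against 6.22% of all genes. In 17 of 50 every used probe set was higher on the KO array, against 2.46% of all genes. Within a gene, the probe sets had a median SD of 0.45 here and 0.68 over all genes, and 24 of the 50 genes were higher and 2 lower by more than their own SD, where 10.3% of all genes differed by more than theirs in either direction.

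Probe sets gave the same picture one at a time. Of 511 probe sets of the 66 genes, 455 passed the floor. Of these, 373 were higher on the KO array, or 82.0%, against 42.6% of all named probe sets above the floor. At least 2-fold higher were 89, or 19.6%, against 9.24% of all such probe sets, and 9 were at least 2-fold lower, or 1.98%, against 11% of all. Of the 455, 14 were under the floor on 1 array and passed through the other, 9 of them higher by 2-fold or more. With the floor on both arrays, chosen after seeing the data, 363 of 441 were higher, or 82.3%, against 42.3% of all, and 80 were at least 2-fold higher, or 18.1%, against 7.29% of all.

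**Figure D1:**
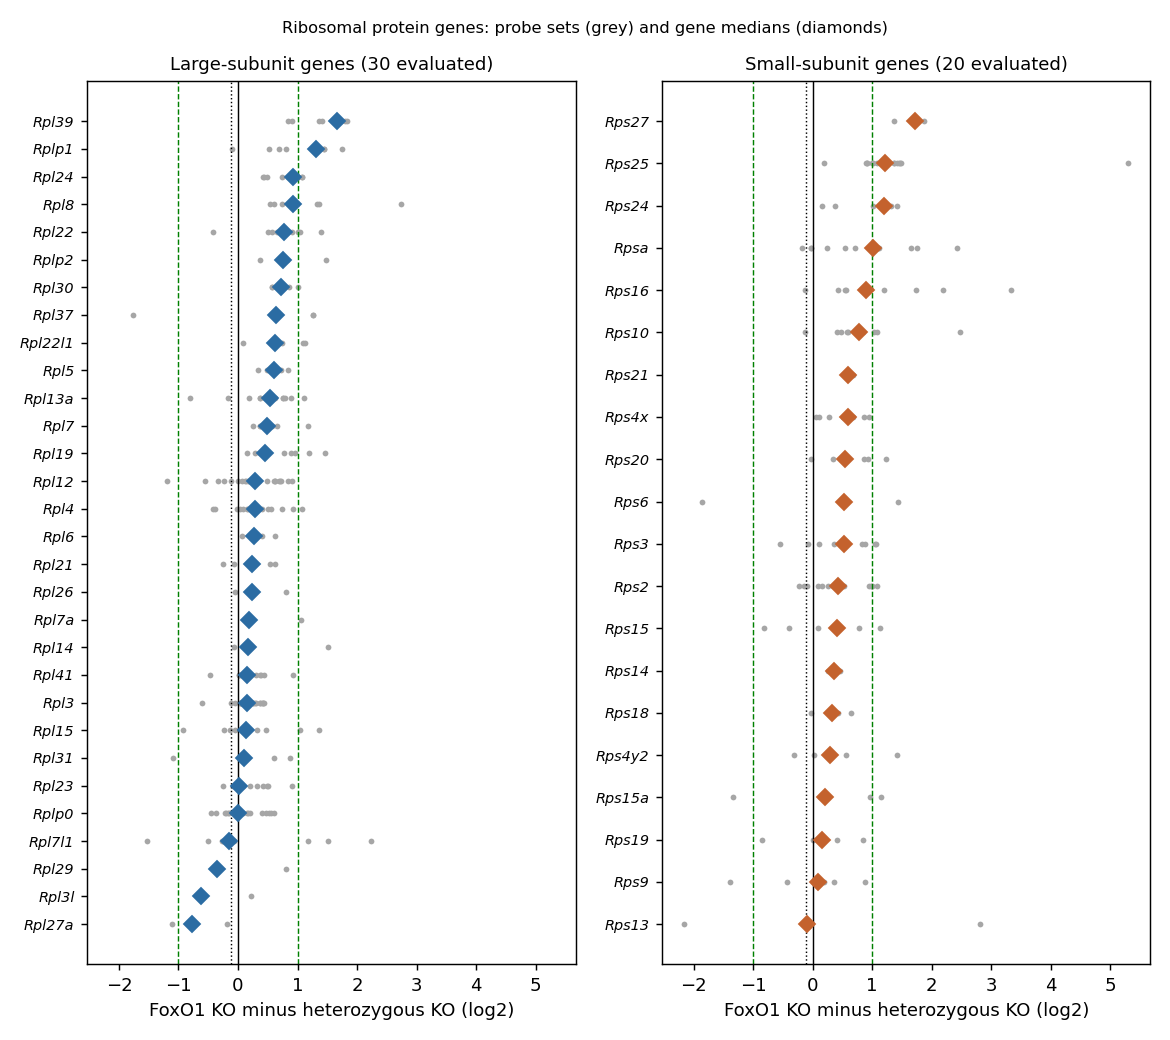
Difference of each evaluated ribosomal protein gene (horizontal axis, FoxO1 KO minus heterozygous KO, log2) for the large subunit on the left and the small subunit on the right. Grey points are single probe sets, diamonds are gene medians, dashed lines mark 2-fold, the solid line 0 and the dotted line the median over all evaluated genes (-0.11). Of 50 diamonds, 45 lie above 0 and 6 beyond 2-fold.

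The large and the small subunit were then compared, as both are needed in equal number for a ribosome. The 30 large-subunit genes had a median difference of 0.27 (SD 0.51 over genes) and the 20 small-subunit genes one of 0.52 (SD 0.44 over genes). Above 0 were 26 of 30 in the large and 19 of 20 in the small subunit. At least 2-fold higher were 2 large-subunit genes (Rpl39 and Rplp1) and 4 small-subunit genes (Rps27, Rps25, Rps24 and Rpsa). With the floor on the dimmer array these counts were 2 and 3, without Rpsa, where 118 of all 16046 genes were called higher. The gap of -0.25 between the medians, large minus small, was not tested. The ranges overlap, from -0.78 to 1.66 in the large and from -0.09 to 1.71 in the small subunit. The gap stayed below 0 in all 13 alternatives. Centring all genes on their median is among these and cannot change the gap, as it shifts every gene alike. The gap was -0.040 under a floor set at the 75th percentile, -0.069 with probe sets of several gene symbols included and -0.10 with the mean over probe sets.

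Within the large subunit, Rpl39 had the highest difference. This small basic protein lines the exit tunnel through which the new protein chain leaves. Its gene level was 11.4 in KO neurons and 9.99 in heterozygous KO neurons, and the difference was 1.66 (3.15-fold, SD 0.37), with 9 of 9 probe sets higher by 0.84 to 1.83. Its 2 smallest differences were in its 2 brightest probe sets, at 12.3 in KO neurons against 11.4 in heterozygous KO neurons for both.

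The stalk proteins bind elongation factors and activate their GTPases, Rplp0 as the base and Rplp1 and Rplp2 as the acidic arms. Rplp1 stood at 11.5 in KO neurons and 10.2 in heterozygous KO neurons, a difference of 1.31 (2.48-fold, SD 0.56), with 9 of 10 probe sets higher. Rplp2 stood at 10.6 in KO neurons and 10.1 in heterozygous KO neurons, a difference of 0.76 (SD 0.47, higher in 4 of 4 probe sets). Rplp0 stood at 9.32 in KO neurons and 9.51 in heterozygous KO neurons, a difference of 0.01 (SD 0.29), with 13 of 23 probe sets higher. The arms were thus higher on the KO array while their base, measured with 23 probe sets, differed by less than its probe set spread.

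Next in the large subunit came Rpl24, Rpl8 and Rpl22, none of them past the 2-fold rule as reported. With all genes centred on their median, Rpl24 (1.04) and Rpl8 (1.03) passed it, as did Rpl8 with the mean over its probe sets (1.14). Rpl24, on the face that meets the small subunit, stood at 11.6 in KO neurons and 10.9 in heterozygous KO neurons, a difference of 0.93 (SD 0.25), with 11 of 11 probe sets higher. Rpl8, near the peptidyl transferase centre, stood at 11.1 in KO neurons and 10.1 in heterozygous KO neurons, a difference of 0.92 (SD 0.71), with 8 of 8 higher. Rpl22 stood at 10.3 in KO neurons and 9.35 in heterozygous KO neurons, a difference of 0.77 (SD 0.54), with 7 of 8 higher. The 11 probe sets of Rpl24 lay between 0.42 and 1.08. The dimmest of Rpl8 read 7.64 in KO neurons and 4.91 in heterozygous KO neurons, where it was under the floor.

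Several genes measured with 14 or more probe sets had small differences. Rpl3, also at the peptidyl transferase centre, differed by 0.14 (SD 0.23, higher in 21 of 24 probe sets), with levels of 12.0 in KO neurons and 11.9 in heterozygous KO neurons. Rpl12 differed by 0.28 (SD 0.49, 19 of 24 higher), Rpl4 by 0.28 (SD 0.38, 15 of 18 higher) and Rpl23 by 0.02 (SD 0.30, 13 of 15 higher). Rpl19, by contrast, differed by 0.45 (SD 0.38) with 14 of 14 probe sets higher, and Rpl13a by 0.53 (SD 0.45) with 14 of 16 higher. Rpl5, which carries 5S ribosomal RNA into the subunit and binds Mdm2, differed by 0.60 (SD 0.22, 4 of 4 higher). Rpl12, Rpl4, Rpl23, Rpl19, Rpl13a and Rpl5, like Rps7, Rpl35a, Rpl17, Rpl9 and Rps15 below, were named after their values were seen.

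Below 0 were 4 large-subunit genes, which were Rpl27a, Rpl3l, Rpl29 and Rpl7l1. Rpl27a stood at 10.4 in KO neurons and 10.8 in heterozygous KO neurons, a difference of -0.78 (SD 0.46, 3 of 3 probe sets lower). A further 12 probe sets name Rpl27a together with other gene symbols, and all 12 were higher on the KO array, with a median of 0.63. With these included, the difference of Rpl27a was 0.61, so its direction depends on which probe sets are taken. Rpl29, a heparin-binding component of the subunit surface, stood at 10.6 in KO neurons and 10.7 in heterozygous KO neurons, a difference of -0.35 (SD 0.68), with 1 of 3 probe sets higher. With probe sets of several symbols its difference was 0.49.

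Within the small subunit, Rps27 had the highest difference among evaluated genes. It is a zinc-binding protein. Its 3 probe sets read 10.5, 10.4 and 12.1 in KO neurons, against 8.64, 8.73 and 10.7 in heterozygous KO neurons. All 3 were higher on the KO array, and the gene's difference was 1.71 (3.27-fold, SD 0.26).

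Rps25 and Rps24 rested on more probe sets. Rps25, which viral and some cellular mRNAs need to start translation at internal sites, stood at 11.5 in KO neurons and 10.2 in heterozygous KO neurons, a difference of 1.21 (2.32-fold, SD 1.09). All 16 of its probe sets were higher. Of these, 1 read 10.1 in KO neurons and 4.77 in heterozygous KO neurons, where it was under the floor, and with the floor on the dimmer array the difference of Rps25 was 1.20. Rps24, whose loss of function is a cause of Diamond-Blackfan anaemia in humans, stood at 11.9 in KO neurons and 10.6 in heterozygous KO neurons, a difference of 1.20 (2.30-fold, SD 0.44). Of its 9 probe sets 7 differed by 1.01 to 1.41, while the 2 brightest, at 13.1 and 13.3 in KO neurons against 13.0 and 12.9 in heterozygous KO neurons, differed by 0.16 and 0.37.

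Rpsa, which is also known as the laminin receptor, stood at 10.2 in KO neurons and 9.10 in heterozygous KO neurons, a difference of 1.02 (2.03-fold, SD 0.77), with 10 of 13 probe sets higher. It was near the threshold and was not past the 2-fold rule in 4 of 10 alternatives, where its lowest value was 0.71. Of its used probe sets, 1 read 7.64 in KO neurons and 5.22 in heterozygous KO neurons, where it was under the floor. With the floor on the dimmer array the difference of Rpsa was 0.87, and its call thus depends on the floor. Rps16, which contacts the tRNA in the decoding region, stood at 11.0 in KO neurons and 10.01 in heterozygous KO neurons, a difference of 0.90 (SD 0.96), with 10 of 11 higher. Taking the mean of its probe sets gave 1.14, past the rule, which it also passed when centred.

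**Figure D2:**
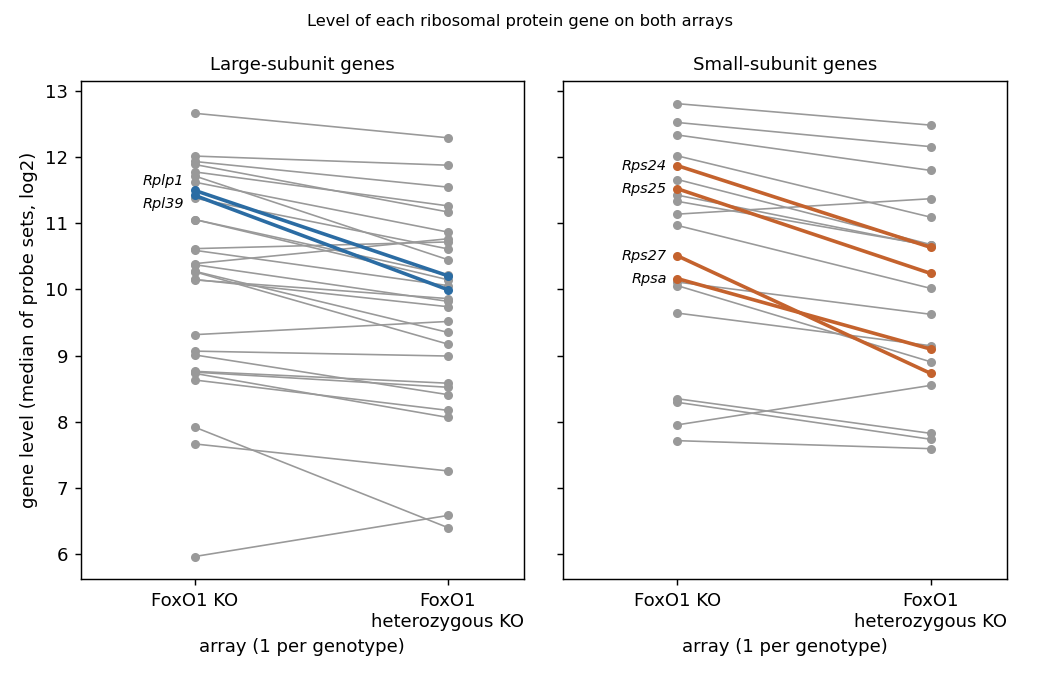
Level of each evaluated gene (vertical axis, median of its probe sets, log2) on the FoxO1 KO array at the left and the FoxO1 heterozygous KO array at the right of each panel, with a line per gene. The 2 large-subunit and 4 small-subunit genes higher in KO neurons by at least 2-fold are coloured and named, and most of the other lines also slope down to the heterozygous array.

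Rps6, the target of S6 kinase in insulin and mTOR signalling, was measured by probe sets that disagree. Its 3 probe sets read 8.35, 7.30 and 9.02 in KO neurons, against 7.82, 9.16 and 7.60 in heterozygous KO neurons. The differences were 0.52, -1.85 and 1.43, and the gene value was 0.52 (SD 1.69).

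The lowest differences of the small subunit were found in Rps13, Rps9, Rps19 and Rps15a, each with an SD over probe sets larger than its difference. Rps13, the 1 small-subunit gene below 0, stood at 7.95 in KO neurons and 8.55 in heterozygous KO neurons, a difference of -0.09 (SD 2.04), and 1 of 4 probe sets was higher. That probe set read 7.54 in KO neurons and 4.73 in heterozygous KO neurons, where it was under the floor, and another differed by -2.16. Rps9, which acts in decoding accuracy, stood at 11.1 in KO neurons and 11.4 in heterozygous KO neurons, a difference of 0.10 (SD 0.66, 6 of 8 higher). Rps19, the gene most often mutated in Diamond-Blackfan anaemia in humans, stood at 7.71 in KO neurons and 7.59 in heterozygous KO neurons, a difference of 0.16 (SD 0.63, 4 of 5 higher). Rps15a had levels of 10.1 in KO neurons and 8.90 in heterozygous KO neurons, yet its difference was 0.20 (SD 0.98, 4 of 5 higher), since the median is taken over differences. It was 0.54 with no floor and 0.59 with the floor on the dimmer array, so its place among the lowest depends on the floor. Centring all genes on their median adds 0.11 to each, which puts Rps13 above 0.

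Several of the 66 genes are copies or relatives of another member, and near-identical copies can share probe signal. Rpl22l1, a paralog that can take the place of Rpl22, stood at 10.3 in KO neurons and 9.17 in heterozygous KO neurons, a difference of 0.62 (SD 0.36, 7 of 7 higher), beside 0.77 for Rpl22. Rps4y2, an older symbol of Rps4l, differed by 0.29 (SD 0.76, 3 of 4 higher), beside 0.59 (SD 0.28, 11 of 11 higher) for the X-linked Rps4x. These pairs thus went the same way.

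Other pairs did not. Rpl3l, a paralog of Rpl3 made mainly in striated muscle, was dim, at 5.96 in KO neurons and 6.58 in heterozygous KO neurons, and differed by -0.62 (SD 0.42, 3 of 4 lower). Rpl7l1, a relative of Rpl7 with a role in ribosome assembly, differed by -0.16 (SD 1.24), and 3 of 8 probe sets were higher, whereas Rpl7 differed by 0.49 (SD 0.29, 8 of 8 higher). Rpl39l, the testis paralog of Rpl39, had 2 of 6 probe sets above the floor, at -0.32 and 0.08. Rpl10l, a testis-enriched retrogene, had 0 of 3 above it, and Rpl10 is not among the 66 genes, so no pair could be compared there.

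Rps27l, a p53 target and paralog of Rps27, had 2 of 7 probe sets above the floor, which differed by -0.44 and 0.03. Of its 5 probe sets under the floor, 4 were higher on the KO array by 1.53 to 2.70. They read 5.04 to 6.88 in KO neurons, against 3.03 to 4.94 in heterozygous KO neurons. Over all 7 probe sets its difference was 1.53, so the floor sets its value.

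In all, 16 genes had fewer than 3 probe sets above the floor and were not evaluated, among them Rpl39l, Rpl10l and Rps27l. Rpl10l and Rpl35 had 0. Of the 14 with 1 or 2 used probe sets, 9 were above 0 and 5 below. With 1 used probe set as the only requirement, 36.5% of all genes were above 0. Rps7, which binds Mdm2 when ribosome assembly is disturbed, had 2 used probe sets at 7.99 and 9.77 in KO neurons, against 6.06 and 7.91 in heterozygous KO neurons, a median difference of 1.90. Rpl35a had 2, with differences of 1.45 and 1.58. The lowest were Rpl17 at -0.73 and Rpl9 at -0.51, with 1 probe set each.

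The size of the difference varied with the brightness of the probe set and was largest at middle levels. In the dimmest class, from 5.86 to 8, the median difference was 0.11 for the large subunit (56 probe sets) and 0.54 for the small subunit (23 probe sets), and from 8 to 9 it was 0.10 (31 probe sets) and 0.31 (22 probe sets). In these 2 classes 46 of 79 and 35 of 53 probe sets of both subunits were above 0, or 58.2% and 66.0%. Of the probe sets of all other genes in the same classes, 43.2% and 41.2% were above 0. From 9 to 10 the medians were 0.61 for the large (38 probe sets) and 1.04 for the small subunit (23 probe sets).

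Above that, medians stayed high and then became smaller. From 10 to 11 they were 0.52 for the large and 0.77 for the small subunit, from 11 to 12 they were 0.55 and 0.87, and from 12 to 13 they were 0.31 and 0.38. At 13 or more the 10 probe sets of both subunits had a median of 0.04. The medians of probe sets of all other genes stayed between -0.13 and -0.04 in every one of these level classes. The medians of the small subunit were above those of the large one in each of the 7 classes. The quartiles overlapped in 6 of them, the exception being the class at 13 or more with 8 large-subunit and 2 small-subunit probe sets. Some probe sets of the dimmest class passed the floor through the KO array alone. Examples are those of Rps25 (10.1 in KO neurons, 4.77 in heterozygous KO neurons), Rps16 (8.36 and 5.02) and Rpl8 (7.64 and 4.91). That of Rps15a (5.54 and 6.87) passed through the heterozygous KO array alone. Whether the gap in the dimmest class holds with the floor on both arrays was not tested.

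Inside genes, the brightest and the dimmest probe sets were set against each other. Since the floor acts on the mean, a dim probe set can pass it through the array where it is high, so the floor was here put on both arrays, an alternative chosen after seeing the data. Among 30 genes with at least 6 such probe sets, the mean difference of the 3 brightest was below that of the 3 dimmest in 19 and above it in 11, with a median gap of -0.13. For Rpsa the 3 brightest probe sets averaged -0.08 and the 3 dimmest 1.32, while for Rps15 they averaged 0.65 and -0.38. With the floor on the mean these counts were 21 and 9. Without probe sets at 12 or more, also chosen after seeing the data, the median difference was 0.34 in the large and 0.52 in the small subunit.

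**Figure D3:**
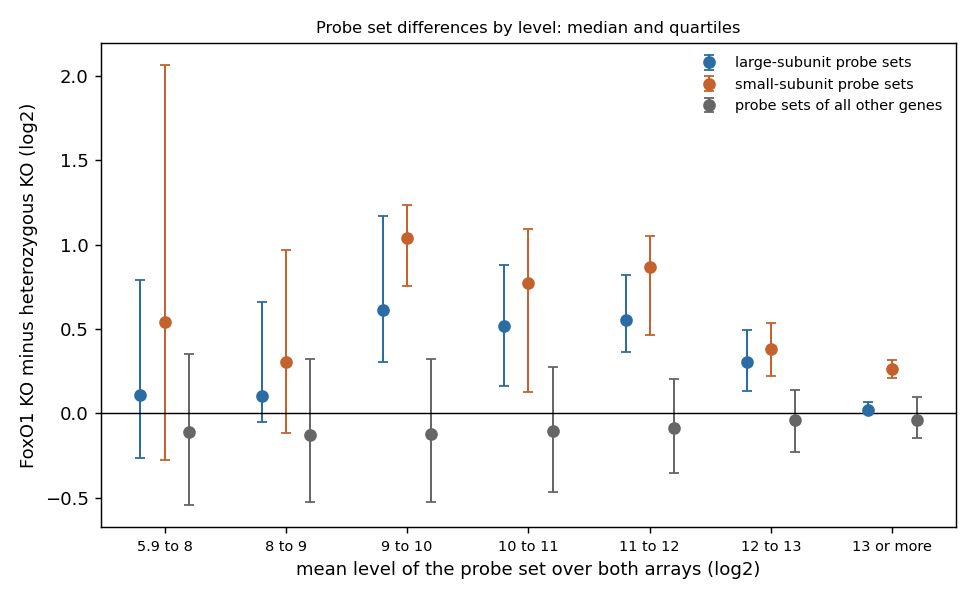
Median difference of probe sets (vertical axis, FoxO1 KO minus heterozygous KO, log2) by their mean level over both arrays (horizontal axis, log2), with bars from the lower to the upper quartile. Blue is the large subunit, orange the small subunit and grey the probe sets of all other genes; the ribosomal medians are highest from 9 to 12 (0.52 to 1.04) and lie from 0.02 to 0.38 in the classes from 12 up.

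Other genes of the translation machinery were compared, from lists drawn up with earlier results of these arrays known. Of 71 evaluated mitochondrial ribosomal protein genes, which serve the separate ribosome of the organelle, 53 were above 0, or 74.6%, against 34.8% of all genes, with a median of 0.20. At least 2-fold higher were 5, or 7.04%, against 1.13% of all genes (Mrpl22 at 2.33, Mrps36 at 1.34, Mrps28 at 1.32, Mrpl39 at 1.06 and Mrps21 at 1.03). The highest, Mrpl17 at 2.51 (SD 2.58), had 4 of 6 probe sets higher and was not called, and the lowest was Mrps5 at -0.74.

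Translation genes whose mRNAs carry the same terminal pyrimidine tract had 9 of 15 above 0, or 60%, against 34.8% of all genes, with a median of 0.15 against -0.11 and 0 past the 2-fold rule. The highest was Btf3, a subunit of the nascent chain complex, at 0.56 (SD 0.51), and the lowest Eif3f, an initiation factor subunit, at -0.67 (SD 0.70). Elongation factor Eef2 was at -0.44 with 21 of 23 probe sets lower (chosen after its value was seen), which is the opposite direction to most ribosomal protein genes.

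Ribosome biogenesis genes had 13 of 30 above 0, or 43.3%, against 34.8% of all genes, and a median of -0.22 against -0.11. Bysl, needed to mature the small subunit, was the 1 gene past the 2-fold rule, where 1.12% of all genes were at least 2-fold lower. It was at -1.70 (SD 1.54, 7 of 8 probe sets lower), with levels of 6.63 in KO neurons and 8.13 in heterozygous KO neurons. Nop10, a small protein of the box H/ACA particles, was highest at 0.80 (SD 0.90). A list for control of ribosomal protein mRNA translation held 8 genes, among them the transcription factor Myc (0.08). Of these, 2 were above 0, or 25%, against 34.8% of all genes, with a median of -0.12 against -0.11 and 0 past the rule. The S6 kinase gene Rps6kb1 was highest at 0.23 (SD 0.70) and Eif4ebp2, a repressor of cap-dependent initiation, lowest at -0.66 (SD 0.43, 16 of 17 lower).

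**Figure D4:**
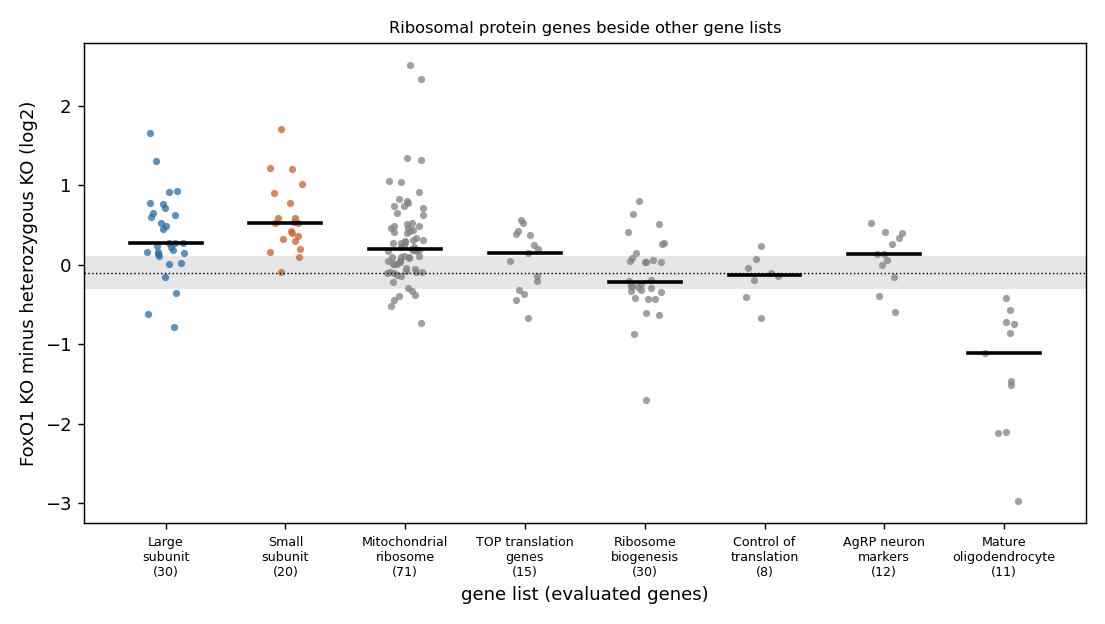
Differences of evaluated genes (vertical axis, FoxO1 KO minus heterozygous KO, log2) in the large and small subunit and in other gene lists, with the number of genes under each name. Each point is a gene, black bars are list medians (0.27 for the large and 0.52 for the small subunit), the grey band spans the quartiles of all evaluated genes and the dotted line is their median of -0.11.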

How the data were processed

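The deposited table holds 1 log2 value per probe set and array. Per the submitters' processing notes, the authors used RMA and Partek (the sources used here give no version, build or annotation). RMA usually includes quantile normalisation, which hides a difference in total RNA between arrays. Of 1235936 probe sets, 318760 carry 1 gene symbol in the platform annotation and were used. The floor, the rule of at least 3 probe sets, the 2-fold call and the gene summary are described with the results. Precision is limited by having 1 array per genotype.

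The genes and lists were chosen with earlier results of these data known. Named are genes past the 2-fold rule, the 5 highest and 5 lowest of each subunit, the stalk proteins, Rps6, Rpsa and paralogs with their parents; for each other list, its extremes and genes past the rule. The calculation of the summary was checked on these data, with differences shuffled among probe sets of like level and known shifts added. Such a check does not cover variation between arrays or mice. Python 3.11.15, pandas 2.3.3, numpy 2.4.6, statsmodels 0.14.6 and matplotlib 3.10.9 were used.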

Additional observations from a re-analysis of the deposited data

How the results depend on the processing

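The median difference stayed above 0 in both subunits in all 13 alternatives, at 0.23 to 0.52 in the large and 0.44 to 0.70 in the small subunit. Large minus small stayed below 0, from -0.31 to -0.040, though centring cannot change this gap, as it shifts every gene alike. The large-subunit median moved by over 0.1 to 0.49 under a floor set at the 75th percentile and to 0.45 with probe sets of several symbols. Centring on the median over genes gave 0.38 for the large and 0.63 for the small subunit, and probe sets from 8 to under 12, chosen after seeing the data, gave 0.52 and 0.70. Large minus small subunit was -0.040 with the floor at that percentile, -0.10 with the mean over probe sets and -0.069 with probe sets of several symbols. A 1.5-fold rule called 18 genes higher and 2 lower, against 3.28% and 4.9% of all genes; 2-fold counts ran from 5 to 9 higher in the other alternatives. Of the 6 genes at least 2-fold higher, Rpsa lost its call (lowest value 0.71) and the other 5 kept it in each of the 9 or 10 alternatives that gave them a value. The sign of 6 other named genes changed in at least 1 alternative, with a lowest value of -0.029 for Rpl3 and -0.026 for Rps9 and a highest of 0.29 for Rpl7l1, 0.12 for Rps13, 0.61 for Rpl27a and 0.49 for Rpl29. Removal of the trend on protein length was not run, since no protein table was used here. No paired analysis was possible because each genotype has 1 array. Few probe sets (10) of ribosomal protein genes were at 13 or more.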

Other observations

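Probe sets that name a ribosomal protein gene together with other gene models were left out of the values above. Of 84 such probe sets above the floor, 81 were higher on the KO array, with a median of 0.43. Of all probe sets with 1 gene symbol above the floor, 42.6% were higher. Each of the 14 genes they name had a median above 0, from 0.14 for Rpl12 to 1.07 for Rpl7, where 34.8% of all evaluated genes were above 0. The probe sets with several symbols measure 2 ribosomal protein genes with no probe set of their own. These are Rpl38 at 0.48 (SD 0.63, 13 of 15 probe sets higher) and Rps3a at 0.51 (SD 0.75, 3 of 3 higher).

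The annotation also names 57 gene models that RefSeq lists as pseudogenes of ribosomal proteins, of which 9 were evaluated. Their median difference was 0.30, with 8 above 0 and 0 past the 2-fold rule. The highest of the 9 was the pseudogene Rps4l-ps at 0.85 and the lowest Rplp0-ps1 at -0.26 (0 of 3 probe sets higher), beside 0.01 for its parent Rplp0. Rpsa-ps1 was at 0.25 (SD 0.08), beside 1.02 for Rpsa. Whether these probe sets read the pseudogene or its parent was not tested.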
